A study of Mus musculus with 24 samples.

Results

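The response of proximal tubules to ischemic acute kidney injury was described in male FVB mice, an inbred strain, by comparing tubules of injured kidneys with tubules of sham kidneys, whose treatment label is no injury. The comparison holds 6 samples from 7 sequencing libraries, of 23 samples from 24 libraries in the whole series: 3 samples labelled IRI_M_PTs and 3 labelled Sham_M_PTs, with the 2 libraries of sham replicate 3 added into 1 sample. All 53392 genes of the files were considered, and the 18369 genes that passed a filter on low counts were tested. Tubules were collected by microdissection from enzymatically digested kidneys, and messenger RNA was sequenced from 20 ng of total RNA per sample. The ischemia time, the time of sampling and the age of the mice are not given in the sources used here. The labels describe RNA from 3 mice of each sex per experimental group, so replicates were taken as separate mice.

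The proximal tubule takes back most of the sugar, phosphate, amino acids and protein that the glomerulus filters, through transporters and endocytic receptors in its brush border, and it burns fat in mitochondria and peroxisomes to pay for that work. It is the segment most exposed to loss of blood flow. After injury, surviving tubule cells are known to flatten, to lose features of the mature cell, to express keratins, adhesion molecules and secreted stress proteins, and to repopulate the tubule.

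The 6 samples held 40911725 to 47176088 estimated reads. Levels are given as CPM, counts scaled to the normalized library size, which compare a gene between samples but not with another gene. Values are listed in the order of replicates 1, 2 and 3. Changes are log2 differences, injured minus sham, with their standard error, and adjusted p-values come from edgeR's quasi-likelihood test with Benjamini-Hochberg adjustment over all tested genes. The fit took its spread from all 12 tubule samples, those of females included. A gene is said to rise or fall when its adjusted p is under 0.05.

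Both replicates numbered 3 stood apart. Sham replicate 3 gave 8.53% of its reads to CT010467.1, against 0.706 to 1.86% in the other male samples, with 15.1% in the first of its technical libraries and 1.97% in the other. Injured replicate 3 stood nearer to the sham samples. Among the genes that rose, the median deviation from the sham mean was 1.5, 1.37 and 0.41 in injured replicates 1, 2 and 3. Among the genes that fell, it was -1.18, -1.21 and -0.58. For gene groups, numbers in parentheses are the members called higher and lower without injured replicate 3, over the removals of each of the other 5 male samples, or with transcript length offsets. They are given where either count moved by over 1.5 times.

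Injury was accompanied by change in both directions: 1939 genes rose, 10.6% of those tested, and 1549 fell, 8.43%. With no regard to the test, all injured libraries lay above all sham libraries for 14.1% of genes and below them for 16.7%. Of the risen genes, 417 had injured replicate 3 inside the sham range, and it was the least changed injured library for 1721 of them. Of the fallen genes, 23 had it inside the sham range. Without injured replicate 3, 3853 genes rose and 4350 fell, which is 20.0% and 22.5% of the 19309 genes then tested. Of the 3488 genes called with all samples, 3459 were also called without that library, and those 3459 had the same direction. Leaving out any other single male sample left 953 to 1669 called genes, and fitting the 6 male samples alone left 154. In that fit of males alone, 34 of the 47 leading genes named by rule below lost their call.

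**Figure D1:**
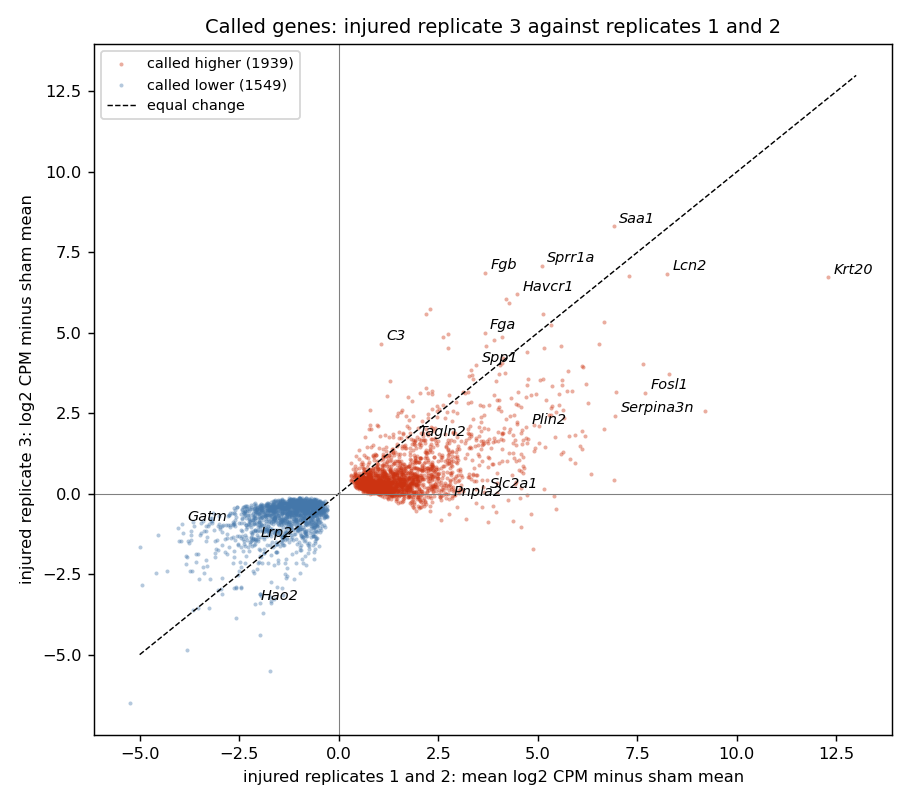
Each point is a gene that rose (red, 1939) or fell (blue, 1549). The x axis is the mean deviation of injured replicates 1 and 2 from the sham mean and the y axis that of injured replicate 3, both in log2 CPM, and the dashed line marks equal change. Most points lie nearer to 0 on the y axis, while Fgb, Fga, C3, Saa1, Havcr1, Sprr1a and Spp1 lie above the dashed line.

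The largest rises were of genes that sham tubules barely expressed. Krt20 (chr11:99428403-99438150), a keratin of simple epithelia, read 0.153, 0.0952 and 0 CPM in sham and 541, 568 and 11.6 CPM in injured libraries. Replicates 1 and 2 of the injured group were far above replicate 3, which was itself above every sham library (12.09 ± 1.60, adjusted p = 0.0015). Adra1b (chr11:43774606-43901210), an alpha-1 adrenergic receptor, read 0.0763, 0.0476 and 0 CPM in sham and 11.5, 9.16 and 0.691 CPM in injured libraries, with the same order among the injured libraries (7.33 ± 1.20, adjusted p = 0.0039). Flnc, the actin cross-linker filamin C, read 0, 0.0476 and 0 CPM in sham and 19.3, 18.3 and 0.748 CPM in injured libraries, so its injured replicate 3 was far below the other injured libraries and above the sham ones (9.36 ± 1.46, adjusted p = 0.0046). Fosl1 (chr19:5447547-5455946), a subunit of the transcription factor AP-1, read 1.27, 0.952 and 0 CPM in sham and 82.4, 83.2 and 3.43 CPM in injured libraries, with no overlap between the groups (6.24 ± 1.25, adjusted p = 0.0091). Sprr1a (chr3:92483952-92485895), a cornified envelope protein of stressed epithelia, went the other way among the injured libraries and was highest in replicate 3: it read 0.280, 0.0476 and 0 CPM in sham and 3.83, 3.88 and 15.5 CPM in injured libraries (6.12 ± 1.66, adjusted p = 0.028).

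Lcn2 (chr2:32384633-32388252), an iron-siderophore binding protein used as a urinary injury marker, read 5.08, 2.09 and 0.354 CPM in sham and 507, 488 and 186 CPM in injured libraries. All 3 injured libraries were high, and the groups did not overlap (7.29 ± 1.04, adjusted p = 0.0020). Havcr1 (chr11:46735080-46779578), the phagocytic receptor KIM-1 and another injury marker, read 5.19, 4.09 and 3.29 CPM in sham and 31.5, 277 and 304 CPM in injured libraries, and here injured replicate 1 was the lowest (5.61 ± 0.83, adjusted p = 0.0024). Spp1 (chr5:104435118-104441050), the secreted phosphoprotein osteopontin, read 311, 177 and 218 CPM in sham and 2278, 2762 and 3639 CPM in injured libraries, highest in replicate 3 (3.62 ± 0.24, adjusted p = 8.0e-05). The remaining rises among the 12 largest were of Serpina3n, an acute phase protease inhibitor (6.38 ± 1.12, adjusted p = 0.0052), Fyb2 (6.26 ± 1.09, adjusted p = 0.0049), Stil, a centriole duplication protein (5.74 ± 1.34, adjusted p = 0.017), and members of gene families described next.

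Saa1, an acute phase apolipoprotein, read 0.229, 0 and 0 CPM in sham and 11.3, 9.30 and 27.2 CPM in injured libraries (7.67 ± 1.07, adjusted p = 0.0030). Gm3776 read 0.153, 0.143 and 0 CPM in sham and 1.23, 55.6 and 1.84 CPM in injured libraries, a rise carried by replicate 2 (7.58 ± 1.59, adjusted p = 0.011). Tpsab1, which encodes a tryptase of mast cells, was without reads in the sham libraries and had 7.33, 7.52 and 5.08 CPM in the injured ones, at least 268-fold more against a floor of 3 counts over the sham group (adjusted p = 4.0e-04). These 3 genes have near-identical relatives, so the share of reads that each received is uncertain.

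Among genes already abundant, Fth1 (chr19:9980598-9985098), the ferritin heavy chain that stores iron, had the largest rise in CPM. It read 2996, 3195 and 2811 CPM in sham and 5989, 7073 and 6683 CPM in injured libraries, and the 3 injured libraries were close to each other (1.13 ± 0.12, adjusted p = 4.0e-04). Plin2 (chr4:86648386-86670060), the coat protein of lipid droplets, read 98.7, 93.6 and 84.1 CPM in sham and 2472, 2341 and 384 CPM in injured libraries, with replicate 3 between the sham level and the other injured libraries (4.23 ± 0.55, adjusted p = 0.0013). Ctsl (chr13:64359337-64370890), the lysosomal protease cathepsin L, read 229, 244 and 216 CPM in sham and 3013, 2202 and 658 CPM in injured libraries, in the same order (3.09 ± 0.41, adjusted p = 0.0015). Ndrg1, a stress-responsive gene, read 1470.3, 2193 and 1087 CPM in sham and 6459, 4600.1 and 1643 CPM in injured libraries, and its injured replicate 3 lay within the sham range (1.42 ± 0.41, adjusted p = 0.035). Tsc22d1 (1.84 ± 0.45), the autophagy receptor Sqstm1 (1.32 ± 0.33) and the membrane linker ezrin, Ezr (1.55 ± 0.39), complete the 8 largest. For Sqstm1 and Ezr, too, injured replicate 3 lay within the sham range.

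Among the 12 largest log2 falls was that of Slc7a12, an amino acid transporter, which read 9.13, 9.31 and 2.55 CPM in sham and 0.540, 0.309 and 1.11 CPM in injured libraries; replicate 3 was the lowest sham and the highest injured library (-3.39 ± 0.89, adjusted p = 0.025). Slc22a13, an organic anion transporter, read 11.5, 12.4 and 1.59 CPM in sham and 0.720, 0.619 and 1.54 CPM in injured libraries, and its groups were separated by a narrow gap between the 2 replicates numbered 3 (-3.13 ± 0.67, adjusted p = 0.012). Ido2, which opens the tryptophan ring, read 12.4, 12.3 and 8.47 CPM in sham and 1.49, 0.666 and 1.94 CPM in injured libraries, without overlap (-3.01 ± 0.37, adjusted p = 0.0010). Prok1, a secreted peptide, read 36.1, 27.7 and 45.9 CPM in sham and 2.80, 2.43 and 12.4 CPM in injured libraries (-2.63 ± 0.55, adjusted p = 0.011). The others were Myom3, Col19a1, Slc22a26, Arhgef39, Etnppl and the N-acetyltransferase relatives Nat8f3, Nat8f6 and Nat8f7, with log2 changes between -2.97 and -2.48. The Nat8f genes resemble each other closely, so their separate values are uncertain.

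Among genes with large falls in CPM was Lrp2 (chr2:69424340-69586065), the endocytic receptor megalin, which read 2941, 3208 and 4051 CPM in sham and 913, 681 and 1225 CPM in injured libraries (-1.86 ± 0.22, adjusted p = 9.4e-04). Odc1 (chr12:17544794-17551505), ornithine decarboxylase, read 3142, 2959 and 2528 CPM in sham and 1075, 1121 and 1227 CPM in injured libraries, and here the injured libraries nearly coincided (-1.33 ± 0.16, adjusted p = 8.8e-04). Hao2, a peroxisomal hydroxyacid oxidase, read 1037, 1401 and 839.6 CPM in sham and 262, 237 and 100.4 CPM in injured libraries, lowest in injured replicate 3 (-2.45 ± 0.31, adjusted p = 0.0012). The sodium-phosphate cotransporter Slc34a1 (-0.88 ± 0.25, adjusted p = 0.031), the fatty acyl-CoA synthetase Slc27a2 (-1.02 ± 0.15), the phospholipid flippase Atp11a (-1.27 ± 0.22) and the aminoacylase Acy3 (-0.84 ± 0.21) also fell.

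Some genes without a protein-coding transcript also changed. Slc6a19os, annotated antisense to the amino acid transporter gene Slc6a19, read 0, 0.119 and 0 CPM in sham and 44.1, 40.4 and 0.384 CPM in injured libraries (9.33 ± 1.83, adjusted p = 0.0084). Gm12505 rose (5.46 ± 0.89), and Gm3226 had no read in a sham library and 2.42, 9.25 and 1.88 CPM in the injured ones, at least 182-fold higher at the same floor. Gm48499, Gm4208 and Gm49179 fell (-5.89 ± 0.97, -3.70 ± 0.85 and -3.31 ± 0.93). Whether the counting used strand is not stated, so reads of an antisense gene and of its partner cannot be told apart.

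**Figure D2:**
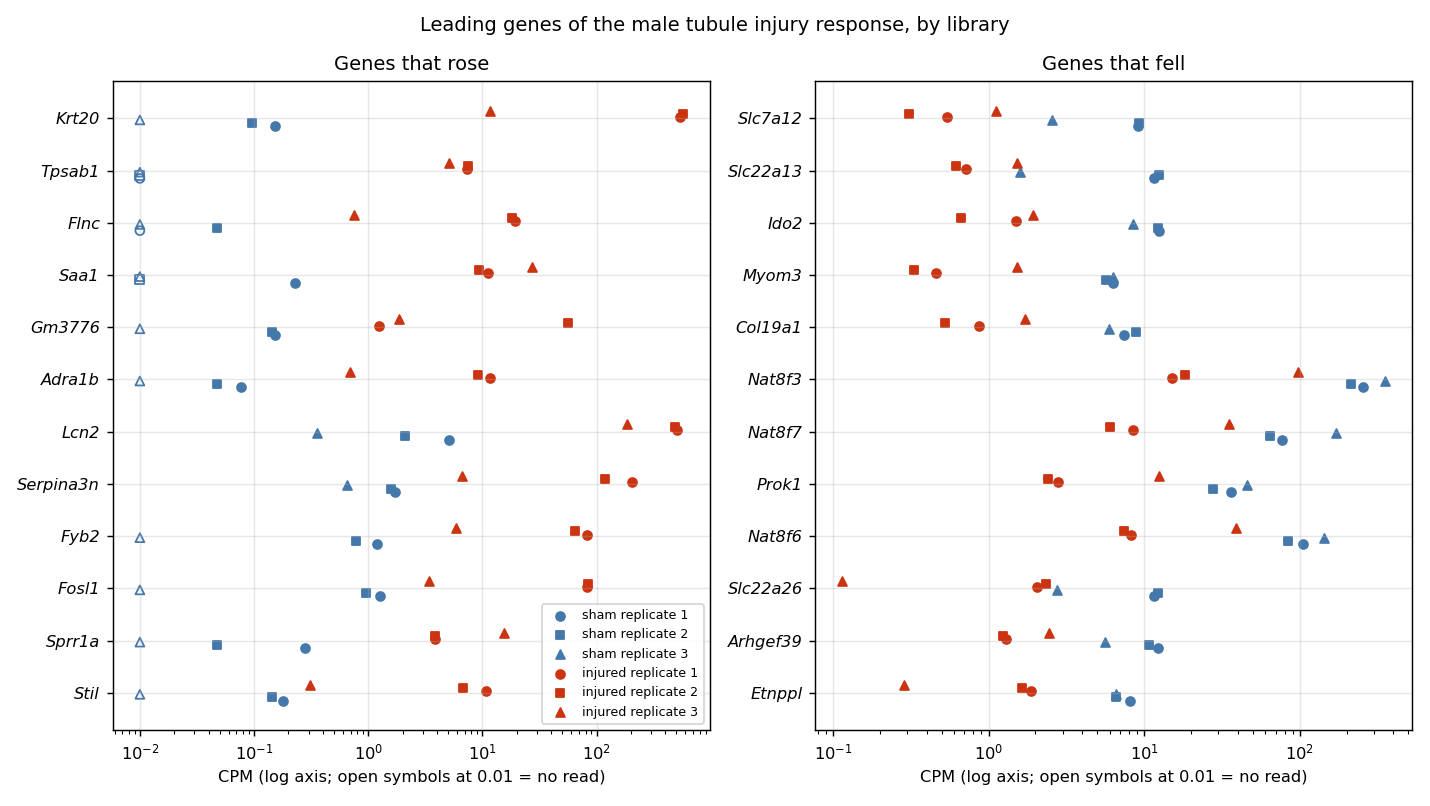
CPM of the 12 genes with the largest log2 rises (left) and the 12 with the largest log2 falls (right) in each of the 6 samples, on a log axis. Blue marks sham and red injured libraries, the shape marks the replicate, and open symbols at 0.01 stand for no read. For Krt20, Flnc, Adra1b and Fosl1 the red triangle of replicate 3 lies between the sham libraries and the other injured ones, while for Saa1 and Sprr1a it is the highest.

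AP-1, the dimer that Fosl1 and its relatives form, binds the letters TGANTCA, and HNF4, the nuclear receptor that sets proximal tubule identity, binds sites that hold the letters CAAAG. RefSeq promoter windows of GRCm38.p6, the 250 bases before each RefSeq start, were searched for both on either strand. Of 12113 tested genes with a window, 4.56% held TGANTCA (6.43% of all 20366 windows), against 6.58% of windows of risen genes (95 of 1443) and 3.99% of windows of fallen genes (46 of 1154). CAAAG stood in 43.8% of windows of tested genes (47.7% of all windows), 40.0% of risen and 47.6% of fallen ones. Of 146 named and leading genes 128 had a window, and 14 of those held TGANTCA, 12 of 79 risen and 2 of 49 fallen ones. These are counts of letters with no test and show no binding.

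The 5 windows printed first belong to 5 of those 12 risen genes, chosen with their values known; the 2 fallen genes that hold the letters are Glyat and Gm4208. The 5, with TGANTCA in capitals, are Adra1b (chr11:43901238-43901487, minus strand), Sprr1a (chr3:92485882-92486131, minus strand), Ezr (chr17:6782781-6783030, minus strand), Plaur (chr7:24462233-24462482, plus strand) and S100a11 (chr3:93520246-93520495, plus strand). Enpep (chr3:129332750-129332999, minus strand), a brush border aminopeptidase gene that fell, is shown for its 4 copies of CAAAG or its reverse complement, in capitals. In Sprr1a the first match overlaps a match to TGACNNNGC, the antioxidant response element, on the other strand.
Adra1b: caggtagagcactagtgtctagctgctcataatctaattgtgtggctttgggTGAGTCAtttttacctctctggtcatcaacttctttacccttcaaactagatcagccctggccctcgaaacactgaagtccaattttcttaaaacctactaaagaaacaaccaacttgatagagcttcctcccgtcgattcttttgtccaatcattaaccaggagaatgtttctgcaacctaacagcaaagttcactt
Sprr1a: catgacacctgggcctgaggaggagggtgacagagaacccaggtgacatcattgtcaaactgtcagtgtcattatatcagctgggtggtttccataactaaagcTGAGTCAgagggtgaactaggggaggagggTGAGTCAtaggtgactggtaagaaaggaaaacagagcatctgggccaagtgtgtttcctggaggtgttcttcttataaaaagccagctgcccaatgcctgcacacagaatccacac
Ezr: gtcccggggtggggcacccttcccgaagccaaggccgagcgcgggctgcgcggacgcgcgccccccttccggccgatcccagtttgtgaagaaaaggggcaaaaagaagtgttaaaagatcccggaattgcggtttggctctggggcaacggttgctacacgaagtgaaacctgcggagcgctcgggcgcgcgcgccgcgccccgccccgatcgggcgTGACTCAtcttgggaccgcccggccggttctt
Plaur: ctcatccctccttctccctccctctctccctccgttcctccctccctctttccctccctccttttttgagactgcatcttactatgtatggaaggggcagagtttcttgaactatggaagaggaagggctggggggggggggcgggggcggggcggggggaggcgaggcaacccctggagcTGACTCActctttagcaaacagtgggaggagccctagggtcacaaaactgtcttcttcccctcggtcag
S100a11: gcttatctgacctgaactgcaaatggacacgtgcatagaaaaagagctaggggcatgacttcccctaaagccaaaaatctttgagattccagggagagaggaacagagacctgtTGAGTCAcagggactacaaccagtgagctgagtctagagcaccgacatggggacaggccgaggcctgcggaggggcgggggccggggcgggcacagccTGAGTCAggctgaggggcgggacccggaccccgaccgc
Enpep: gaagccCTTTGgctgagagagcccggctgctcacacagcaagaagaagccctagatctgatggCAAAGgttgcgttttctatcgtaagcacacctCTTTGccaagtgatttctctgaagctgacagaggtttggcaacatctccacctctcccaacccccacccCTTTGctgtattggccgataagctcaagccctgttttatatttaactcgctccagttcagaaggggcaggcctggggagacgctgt

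Gene groups were read against the background shares of 10.6% risen and 8.43% fallen genes. The counts in parentheses come from fits with other backgrounds and must be read against those. Without injured replicate 3, 20.0% of all tested genes rose and 22.5% fell. Without another male sample, 528 to 925 genes rose and 425 to 744 fell over all genes. With length offsets, 1200 rose and 922 fell. Over all tested genes the median log2 change was -0.026. Fewer cells of a type and less RNA per cell cannot be told apart in these bulk samples.

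Genes of the mature tubule mostly lay lower. Among brush border and endocytosis genes (22 tested members), 1 rose and 6 fell (1 and 13 without injured replicate 3, 0 to 1 and 2 to 5 without another sample, median with all samples -0.54). Cubn, the partner receptor of megalin, read 707, 691 and 929 CPM in sham and 285, 207 and 334 CPM in injured libraries (-1.5 ± 0.20, adjusted p = 0.0016), and the scaffold Pdzk1, which was named after its values were seen, read 1354, 1475 and 1753 CPM in sham and 522, 470.0 and 1144 CPM in injured libraries (-1.10 ± 0.29, adjusted p = 0.025). Cdhr5 (-0.64 ± 0.15) and Enpep (-0.82 ± 0.20) fell as well, and Ezr, with injured replicate 3 within its sham range, was the member that rose.

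Among sugar, phosphate, anion and bicarbonate transport genes (30 tested members), 2 rose and 11 fell (1 to 2 and 6 to 8 without another sample, median with all samples -0.29, -0.56 without injured replicate 3). Slc5a8, a sodium-coupled lactate and short-chain acid transporter, read 411, 414 and 367 CPM in sham and 75.1, 62.8 and 132 CPM in injured libraries (-2.14 ± 0.23, adjusted p = 4.5e-04). The water channel Aqp1 read 1333, 1166 and 976 CPM in sham and 715, 588 and 489.5 CPM in injured libraries (-0.95 ± 0.16, adjusted p = 0.0045), and the citrate transporter Slc13a2 fell (-1.0 ± 0.16). The members that rose were the lactate carrier Slc16a1, which read 26.8, 35.6 and 14.5 CPM in sham and 159, 108 and 71.8 CPM in injured libraries (2.14 ± 0.40, adjusted p = 0.0066), and the glucose transporter Slc2a1 of the basolateral side (2.97 ± 0.71). Slc13a1, the sulfate transporter, read 323, 420.4 and 403 CPM in sham and 179, 176 and 1097 CPM in injured libraries: its injured replicates were low in 1 and 2 and high in 3 (adjusted p = 0.70). Slc13a1 was named with its values known.

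Transcription factors of proximal identity gave 12 tested members, of which 4 fell and 8 did not pass (1 and 8 without injured replicate 3, 0 to 1 and 0 to 2 without another sample, 1 and 2 with length offsets, median with all samples -0.74). Maf (-1.03 ± 0.27), the bile acid receptor Nr1h4 (-0.74 ± 0.18), and the mitochondrial regulators Esrra (-1.14 ± 0.32) and Ppargc1a (-1.01 ± 0.31) fell. Hnf4a read 735, 932 and 1147 CPM in sham and 303, 255 and 795 CPM in injured libraries and did not pass (-1.06 ± 0.36, adjusted p = 0.060). Without injured replicate 3 its log2 change was -1.75 (adjusted p = 4.4e-05).

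Among amino acid and glycine metabolism genes (27 tested members), 2 rose and 14 fell (1 to 2 and 9 to 12 without another sample), a larger share of falls than the background (median -0.66). Kmo, kynurenine monooxygenase, read 139.8, 177 and 158 CPM in sham and 47.5, 41.5 and 74.0 CPM in injured libraries (-1.54 ± 0.19, adjusted p = 0.0011). Gatm, which makes the creatine precursor and was named after its values were seen, read 546, 735 and 1099 CPM in sham and 45.3, 55.1 and 393 CPM in injured libraries, with replicate 3 below the sham range but several times above the other injured libraries (-2.27 ± 0.67, adjusted p = 0.037). The aminoacylase Acy1 (-1.17 ± 0.19) and the glycine conjugating enzyme Glyat (-0.90 ± 0.15) fell too. Glud1 (0.71 ± 0.13) and Got1 (1.04 ± 0.22), both enzymes of glutamate, were the members that rose.

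Tryptophan breakdown feeds the synthesis of NAD, and of its 16 tested members, 6 fell and 10 did not pass (0 and 12 without injured replicate 3, median with all samples -1.05). Acmsd, which diverts the pathway away from NAD, read 191, 259 and 208 CPM in sham and 54.6, 48.8 and 80.5 CPM in injured libraries (-1.84 ± 0.19, adjusted p = 3.7e-04). Haao, the enzyme just before that branch, read 186, 205 and 176 CPM in sham and 101, 93.7 and 77.0 CPM in injured libraries (-1.06 ± 0.13, adjusted p = 0.0010). Afmid (-1.15 ± 0.17), Naprt (-0.86 ± 0.23), Kmo and Ido2 also fell. Nmrk1, a nicotinamide riboside kinase, read 114, 106 and 126 CPM in sham and 19.0, 25.0 and 90.9 CPM in injured libraries and did not pass (-1.36 ± 0.44, adjusted p = 0.053); without injured replicate 3 its adjusted p was 5.5e-07.

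Peroxisome genes gave 24 tested members, of which 6 fell and 18 did not pass (1 and 12 without injured replicate 3, 0 and 2 to 4 without another sample, median with all samples -0.30). Pecr, an enoyl-CoA reductase, read 505, 517 and 483 CPM in sham and 209, 199 and 192 CPM in injured libraries, and the 3 injured libraries were nearly equal (-1.33 ± 0.10, adjusted p = 8.7e-05). Crot (-0.71 ± 0.13), Scp2 (-0.46 ± 0.10) and catalase, Cat (-0.73 ± 0.18), fell. Acaa1b, the peroxisomal thiolase, read 168, 167 and 174 CPM in sham and 80.6, 72.9 and 330.4 CPM in injured libraries, low in injured replicates 1 and 2 and high in 3 (adjusted p = 0.93), and is named here with its values known.

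Among cytochrome P450 genes (22 tested members), 3 rose and 3 fell (3 and 7 without injured replicate 3). Cyp24a1, which inactivates vitamin D, read 2.47, 8.62 and 12 CPM in sham and 209.9, 139 and 137 CPM in injured libraries, without overlap (4.40 ± 0.88, adjusted p = 0.0094). Cyp2s1 rose (1.95 ± 0.27), and Cyp2j5, an arachidonic acid epoxygenase, fell (-0.90 ± 0.12). Cyp4a14, a fatty acid hydroxylase named after its values were seen, read 99.1, 39.9 and 114 CPM in sham and 2.83, 5.23 and 487 CPM in injured libraries, so that injured replicate 3 lay above and the other injured libraries below the sham range. Cyp2a and Cyp4a genes have close relatives that may share reads.

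Cholesterol synthesis genes gave 21 tested members, of which 2 rose and 7 fell (5 and 12 without injured replicate 3, 0 to 2 and 3 without another sample, median with all samples -0.54). Cyp51, a sterol demethylase, read 669, 536 and 511 CPM in sham and 196, 174 and 58.5 CPM in injured libraries (-2.0 ± 0.36, adjusted p = 0.0056). Idi1 (-1.77 ± 0.32) and Nsdhl (-0.83 ± 0.14) fell, whereas Msmo1, another enzyme of the pathway, rose and read 20.3, 15 and 16.4 CPM in sham and 92.0, 95.0 and 22.4 CPM in injured libraries (2.02 ± 0.48, adjusted p = 0.018). Lipid droplet and lipid synthesis genes gave 25 tested members, of which 9 rose and 2 fell (12 and 5 without injured replicate 3, 5 to 7 and 0 to 1 without another sample, 9 and 0 with length offsets, median with all samples 0.70). Beside Plin2, the lipase inhibitor G0s2 read 22.8, 25.4 and 17.7 CPM in sham and 120.3, 111 and 35.0 CPM in injured libraries (2.01 ± 0.36, adjusted p = 0.0056), and Hilpda (3.92 ± 0.83) and Lpin3 (1.30 ± 0.26) rose. Cidec, a droplet fusion protein, had no read in a sham library and 2.24, 2.33 and 0.499 CPM in the injured ones, at least 68.1-fold higher at the floor. Among the male libraries, Cidec could pass the count filter only through injured ones.

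Of 13 mitochondrially encoded messages, 0 were called by edgeR (0 at an unadjusted p under 0.05 and 0 by DESeq2; 1 rose without injured replicate 3), and their median log2 change was 0.23, 0.49 without injured replicate 3. Glycolysis genes gave 22 tested members, of which 3 rose and 3 fell (7 and 8 without injured replicate 3, 1 to 3 and 1 to 2 without another sample). The rises were of isozymes, Pkm, which read 172, 104 and 96.1 CPM in sham and 425, 462 and 148 CPM in injured libraries (1.47 ± 0.35, adjusted p = 0.019), Pfkp (1.89 ± 0.35) and Hk2 (4.0 ± 1.08), and the falls included those of the fructokinase Khk (-0.70 ± 0.17) and of Pfkm (-0.92 ± 0.29). Hypoxia-inducible genes gave 20 tested members, of which 8 rose and 4 fell (1 to 3 and 1 without another sample, 6 and 0 with length offsets). P4ha2, a collagen prolyl hydroxylase, rose (1.18 ± 0.17, adjusted p = 0.0024) with Adm, adrenomedullin (1.58 ± 0.38), while Pdk3 (-0.68 ± 0.14) and Vegfa, which read 140.4, 152 and 129.8 CPM in sham and 107, 72.5 and 112 CPM in injured libraries (-0.53 ± 0.16, adjusted p = 0.037), fell.

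Polyamine metabolism gave 12 tested members, of which 2 rose and 1 fell (3 and 2 without injured replicate 3), shares near the background. The median log2 change was 0.058. The member that fell was Odc1, which makes putrescine, and the members that rose were the catabolic enzymes Sat1 and Smox. The acetyltransferase Sat1 read 253, 243 and 166 CPM in sham and 624, 684 and 333 CPM in injured libraries (1.31 ± 0.26, adjusted p = 0.0093). Spermine oxidase, Smox, read 3.13, 4.62 and 5.18 CPM in sham and 49.9, 47.2 and 9.98 CPM in injured libraries (3.05 ± 0.49, adjusted p = 0.0037). The groups did not overlap for these 3 genes. The catabolic enzymes Paox (adjusted p = 1.00) and Sat2 (adjusted p = 0.14) did not pass.

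Cytoskeleton genes had the largest share of risen members among the 30 gene lists: of 30 tested members, 21 rose and 9 did not pass (median 1.10). Tagln2, an actin-binding protein, read 65.5, 64.0 and 65.3 CPM in sham and 232, 244 and 209 CPM in injured libraries, with little spread within either group (1.81 ± 0.13, adjusted p = 8.0e-05). Tpm4, a tropomyosin, read 45.2, 45.3 and 40.2 CPM in sham and 279, 285 and 118 CPM in injured libraries (2.38 ± 0.28, adjusted p = 8.7e-04). The tubulins Tuba1b (1.23 ± 0.15) and Tubb2a (2.20 ± 0.32) rose too. Tubulin genes resemble each other, so their separate values carry that uncertainty.

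Keratins gave 7 tested members, of which 2 rose and 5 did not pass (5 and 0 without injured replicate 3, 1 to 3 and 0 without another sample, 1 and 0 with length offsets). Krt20 and Krt19, which read 1.09, 0.405 and 0 CPM in sham and 14.2, 16.5 and 2.61 CPM in injured libraries (4.47 ± 1.44, adjusted p = 0.0499), rose, while Krt8 read 430.0, 362 and 103 CPM in sham and 1324, 1248 and 253 CPM in injured libraries and did not pass (1.66 ± 0.57, adjusted p = 0.061). Among annexins, S100 proteins and galectins (23 tested members), 14 rose and 1 fell (6 to 10 and 0 to 1 without another sample, median with all samples 1.33). Anxa3 read 4.12, 4.17 and 1.82 CPM in sham and 40.0, 74.3 and 53.9 CPM in injured libraries (4.06 ± 0.40, adjusted p = 3.0e-04). Anxa2, a membrane-binding partner of S100a10, read 17.0, 14.1 and 6.85 CPM in sham and 125, 161 and 62.3 CPM in injured libraries (3.20 ± 0.51, adjusted p = 0.0035). Anxa5, which binds exposed phosphatidylserine, read 58.1, 49.2 and 41.1 CPM in sham and 82.8, 120.1 and 169.9 CPM in injured libraries, highest in injured replicate 3 (1.33 ± 0.23, adjusted p = 0.0045). S100a11 rose (2.02 ± 0.33).

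**Figure D3:**
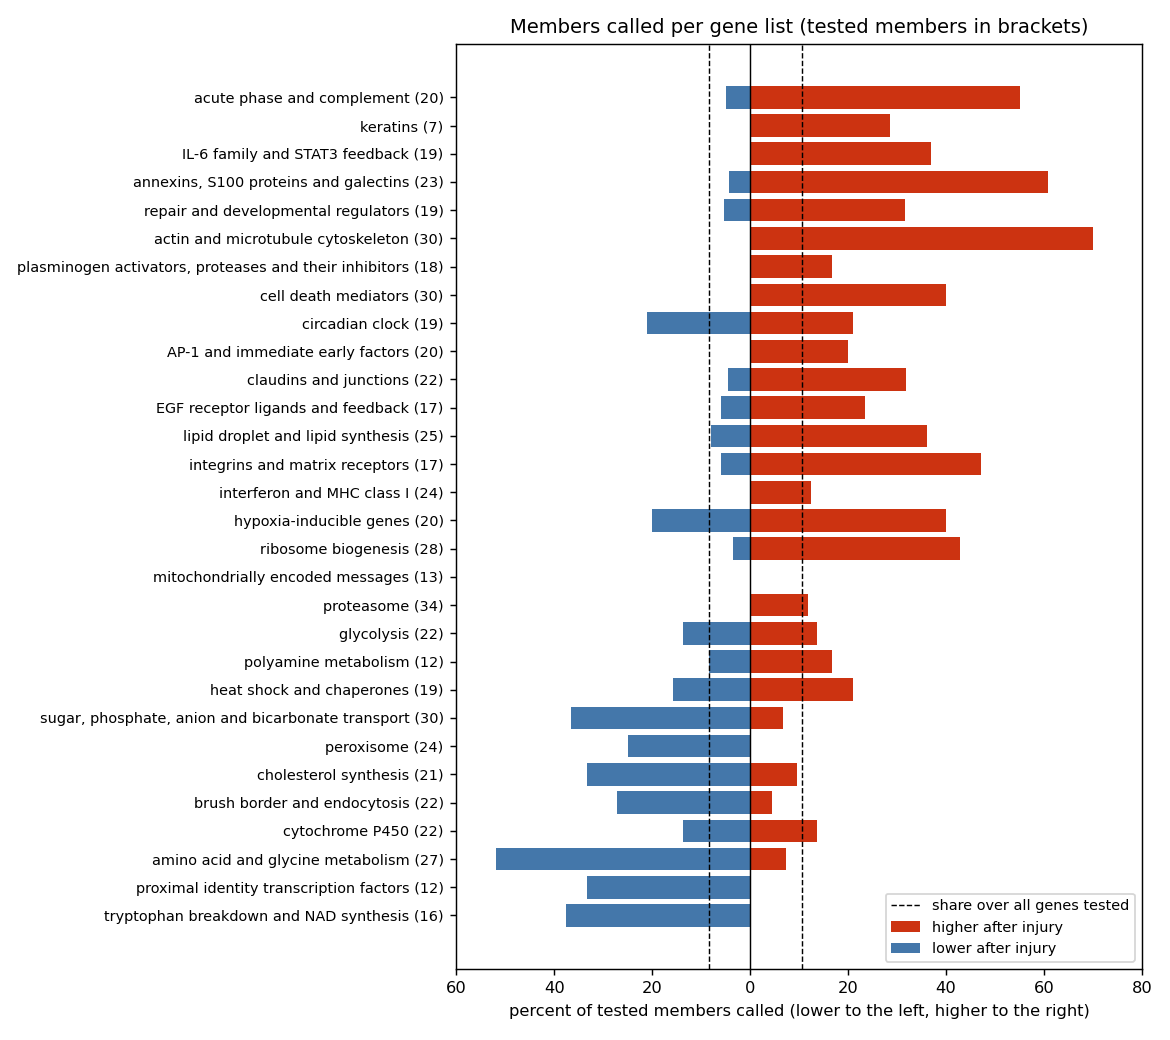
Share of the tested members of each of the 30 gene lists that rose (red, to the right) or fell (blue, to the left), in percent. The lists are ordered by their median log2 change, the number of tested members stands in brackets, and dashed lines mark the shares over all genes tested, 10.6% and 8.43%. Cytoskeleton, annexin and acute phase lists reach farthest right, and amino acid metabolism and tryptophan breakdown farthest left. The acute phase and lipid droplet lists include members without a sham read. Among the male libraries, those could pass the count filter only through injured ones.

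Claudins and junction genes gave 22 tested members, of which 7 rose and 1 fell (13 and 4 without injured replicate 3, 2 to 6 and 0 to 1 without another sample). Cldn1, a tight junction claudin, read 12.1, 17.1 and 10.0 CPM in sham and 61.8, 68.2 and 41.4 CPM in injured libraries (2.13 ± 0.22, adjusted p = 4.2e-04). The fall was that of Cldn10, another claudin, named after its values were seen, which read 199, 196 and 182 CPM in sham and 37.0, 58.2 and 130.2 CPM in injured libraries (-1.35 ± 0.34, adjusted p = 0.022). Integrins and matrix receptors gave 17 tested members, of which 8 rose and 1 fell (11 and 3 without injured replicate 3, 5 to 7 and 0 without another sample, 6 and 0 with length offsets). Itga6, a laminin receptor subunit, read 75.6, 81.4 and 89.1 CPM in sham and 247, 222 and 167 CPM in injured libraries (1.37 ± 0.16, adjusted p = 7.6e-04), and Itgb1 (0.80 ± 0.14), Ddr1 (0.69 ± 0.12) and syndecan 1, Sdc1 (2.73 ± 0.55), rose.

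Among plasminogen activators, proteases and their inhibitors (18 tested members), 3 rose and 15 did not pass (8 and 3 without injured replicate 3). Plaur, the urokinase receptor, read 6.00, 3.43 and 1.49 CPM in sham and 68.5, 74.9 and 14.4 CPM in injured libraries (3.85 ± 0.88, adjusted p = 0.016). Timp1, an inhibitor of metalloproteinases, read 0.127, 0 and 0 CPM in sham and 2.78, 2.31 and 3.43 CPM in injured libraries (5.99 ± 1.14, adjusted p = 0.011), and Mmp14 rose (2.56 ± 0.54).

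Immediate early genes were unequal among the sham libraries. Their summed level was 6893, 5927 and 1107 CPM in sham and 8402, 7225 and 4629 CPM in injured libraries, lowest in sham replicate 3. Of 20 tested members, 4 rose and 16 did not pass (8 and 0 without injured replicate 3, 1 to 3 and 0 to 1 without another sample). The 4 were Fosl1, Fosl2 (2.37 ± 0.57), Ier3 (1.92 ± 0.49) and Ier5 (1.81 ± 0.53). Atf3, a stress factor named after its values were seen, read 773, 581 and 15 CPM in sham and 575, 600.3 and 218 CPM in injured libraries, so that 2 sham libraries were near the injured level. Repair and developmental regulators gave 19 tested members, of which 6 rose and 1 fell (8 and 2 without injured replicate 3, 2 to 6 and 0 to 1 without another sample). Sox9, a factor of tubule repair, read 2.24, 1.76 and 0.354 CPM in sham and 58.1, 51.5 and 7.98 CPM in injured libraries (4.75 ± 0.76, adjusted p = 0.0035). Sox4 read 26.0, 13.9 and 7.84 CPM in sham and 239, 188 and 47.4 CPM in injured libraries (3.31 ± 0.56, adjusted p = 0.0043). The Hippo pathway coactivator Wwtr1 rose (0.96 ± 0.21) and the Wnt receptor Fzd1 fell (-1.20 ± 0.33).

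Among EGF receptor ligands and feedback genes (17 tested members), 4 rose and 1 fell (11 and 1 without injured replicate 3, 1 to 2 and 0 to 1 without another sample, 2 and 0 with length offsets). The ligand Areg, amphiregulin, read 0.203, 0.0952 and 0.101 CPM in sham and 8.28, 9.42 and 0.844 CPM in injured libraries (5.51 ± 1.09, adjusted p = 0.012). The ligand Btc, betacellulin, read 15.8, 8.81 and 3.67 CPM in sham and 2.26, 2.43 and 3.61 CPM in injured libraries and fell (-1.77 ± 0.50, adjusted p = 0.032). The feedback inhibitors Spry2 (1.74 ± 0.31) and Dusp6 (1.06 ± 0.27) rose.

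IL-6 family genes gave 19 tested members, of which 7 rose and 12 did not pass (2 to 4 and 0 without another sample, 4 and 0 with length offsets, median with all samples 1.43). The cytokine Il6 read 0.280, 0.262 and 0 CPM in sham and 20.2, 9.23 and 0.211 CPM in injured libraries, with injured replicate 3 at the sham level (5.74 ± 1.64, adjusted p = 0.040). Lif, a cytokine of the same family, read 2.01, 0.476 and 0.152 CPM in sham and 22.2, 27.2 and 3.88 CPM in injured libraries (4.33 ± 1.07, adjusted p = 0.020). The receptor Osmr read 0.661, 2.00 and 1.57 CPM in sham and 21.4, 18 and 11.1 CPM in injured libraries (3.57 ± 0.69, adjusted p = 0.0077). Stat3, the factor these receptors activate, read 61.9, 54.7 and 52.4 CPM in sham and 374, 281 and 133 CPM in injured libraries, without overlap (2.22 ± 0.29, adjusted p = 0.0015).

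Acute phase and complement genes had the highest median of the 30 gene lists, 3.65: of 20 tested members, 11 rose and 1 fell (12 and 2 without injured replicate 3, 7 to 8 and 0 to 1 without another sample). The 3 fibrinogen chains were highest in injured replicate 3. Fgg read 27.6, 17.6 and 5.92 CPM in sham and 347, 219 and 859.9 CPM in injured libraries (4.80 ± 0.62, adjusted p = 0.0013), Fga read 51.1, 44.9 and 11.4 CPM in sham and 459, 309.5 and 946 CPM in injured libraries (4.0 ± 0.56, adjusted p = 0.0019). Fgb read 4.88, 1.93 and 1.34 CPM in sham and 37.1, 25.1 and 277 CPM in injured libraries (5.38 ± 0.90, adjusted p = 0.0042). Complement C3 read 19.3, 16.3 and 16 CPM in sham and 48.5, 26.4 and 436 CPM in injured libraries and lost its call without injured replicate 3 (3.31 ± 0.89, adjusted p = 0.028 with it, adjusted p = 0.067 without it). Lrg1, a leucine-rich acute phase glycoprotein, read 3.89, 5.17 and 2.28 CPM in sham and 68.0, 42.5 and 99.5 CPM in injured libraries (4.21 ± 0.44, adjusted p = 4.2e-04). Hp, haptoglobin, and Saa2 had no read in a sham library and were at least 93.7-fold and 63.5-fold higher in injured ones at the floor. The median of the list stayed 3.65 with both at those bounds. Among the male libraries, both could pass the count filter only through injured ones, and the share and median of the list include them. Pigr, which carries IgA across epithelia, was the member that fell (-1.80 ± 0.41).

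Interferon and MHC class I genes gave 24 tested members, of which 3 rose and 21 did not pass (10 and 1 without injured replicate 3, 0 to 2 and 0 without another sample), a share near the background. Rsad2, an antiviral enzyme, read 9.28, 4.33 and 2.20 CPM in sham and 132, 125 and 2.84 CPM in injured libraries (4.03 ± 1.03, adjusted p = 0.023), with injured replicate 3 inside the sham range. Among cell death mediators (30 tested members), 12 rose and 18 did not pass (14 and 3 without injured replicate 3, 6 to 10 and 0 without another sample, median with all samples 1.00). The TNF receptor Tnfrsf1a read 27.9, 24.8 and 18.7 CPM in sham and 97.5, 96.0 and 69.5 CPM in injured libraries (1.88 ± 0.19, adjusted p = 3.4e-04), the necroptosis effector Mlkl read 0.686, 0.333 and 0.607 CPM in sham and 9.18, 11.7 and 2.78 CPM in injured libraries (3.85 ± 0.58, adjusted p = 0.0027), and Acsl4, which loads membranes with the lipids oxidised in ferroptosis, read 40.4, 36.4 and 42.3 CPM in sham and 196, 195 and 102 CPM in injured libraries (2.05 ± 0.23, adjusted p = 7.4e-04). The survival gene Bcl2l1, named after its values were seen, rose as well (1.73 ± 0.32).

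Ribosome biogenesis gave 28 tested members, of which 12 rose and 1 fell (12 and 6 without injured replicate 3, 5 to 8 and 1 without another sample, 7 and 1 with length offsets). The helicase Ddx21 read 52.8, 46.2 and 52.6 CPM in sham and 113, 110.2 and 77.6 CPM in injured libraries (0.99 ± 0.16, adjusted p = 0.0035), Rrs1 rose (0.96 ± 0.17) and Utp20 fell (-1.0 ± 0.17). Proteasome genes gave 34 tested members, of which 4 rose and 30 did not pass (16 and 1 without injured replicate 3, 1 to 2 and 0 without another sample, 2 and 0 with length offsets), with Psmd8 (122, 124 and 104 CPM in sham and 423, 431 and 167 CPM in injured libraries) the most changed (1.54 ± 0.28, adjusted p = 0.0058). Heat shock and chaperone genes gave 19 tested members, of which 4 rose and 3 fell (5 and 5 without injured replicate 3, 0 to 2 and 1 to 2 without another sample, 2 and 2 with length offsets). The small heat shock gene Hspb1 read 18.7, 14.6 and 3.03 CPM in sham and 167, 162 and 34.7 CPM in injured libraries (3.32 ± 0.76, adjusted p = 0.015), while the cochaperone Dnaja1 fell (-0.79 ± 0.14).

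Circadian clock genes gave 19 tested members, of which 4 rose and 4 fell (9 and 4 without injured replicate 3, 0 to 2 and 0 to 2 without another sample, 0 and 3 with length offsets). Cry1, a repressor of the clock, read 2.92, 1.24 and 2.98 CPM in sham and 23.8, 23.4 and 3.40 CPM in injured libraries (2.82 ± 0.61, adjusted p = 0.012), and Bhlhe41 rose (1.58 ± 0.43). Arntl, the clock's activator, named after its values were seen, read 3.23, 4.02 and 1.37 CPM in sham and 22.2, 15.8 and 2.88 CPM in injured libraries (2.25 ± 0.70, adjusted p = 0.045). The output factors Tef, which read 228, 210.1 and 313 CPM in sham and 97.7, 77.1 and 156 CPM in injured libraries (-1.18 ± 0.26, adjusted p = 0.013), and Hlf (-1.71 ± 0.48), and Per3 (-1.35 ± 0.38), fell. The list median was 1.60, 1.23 and -0.36 in injured replicates 1, 2 and 3, and the hour of sampling is not given in the sources used here.

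**Figure D4:**
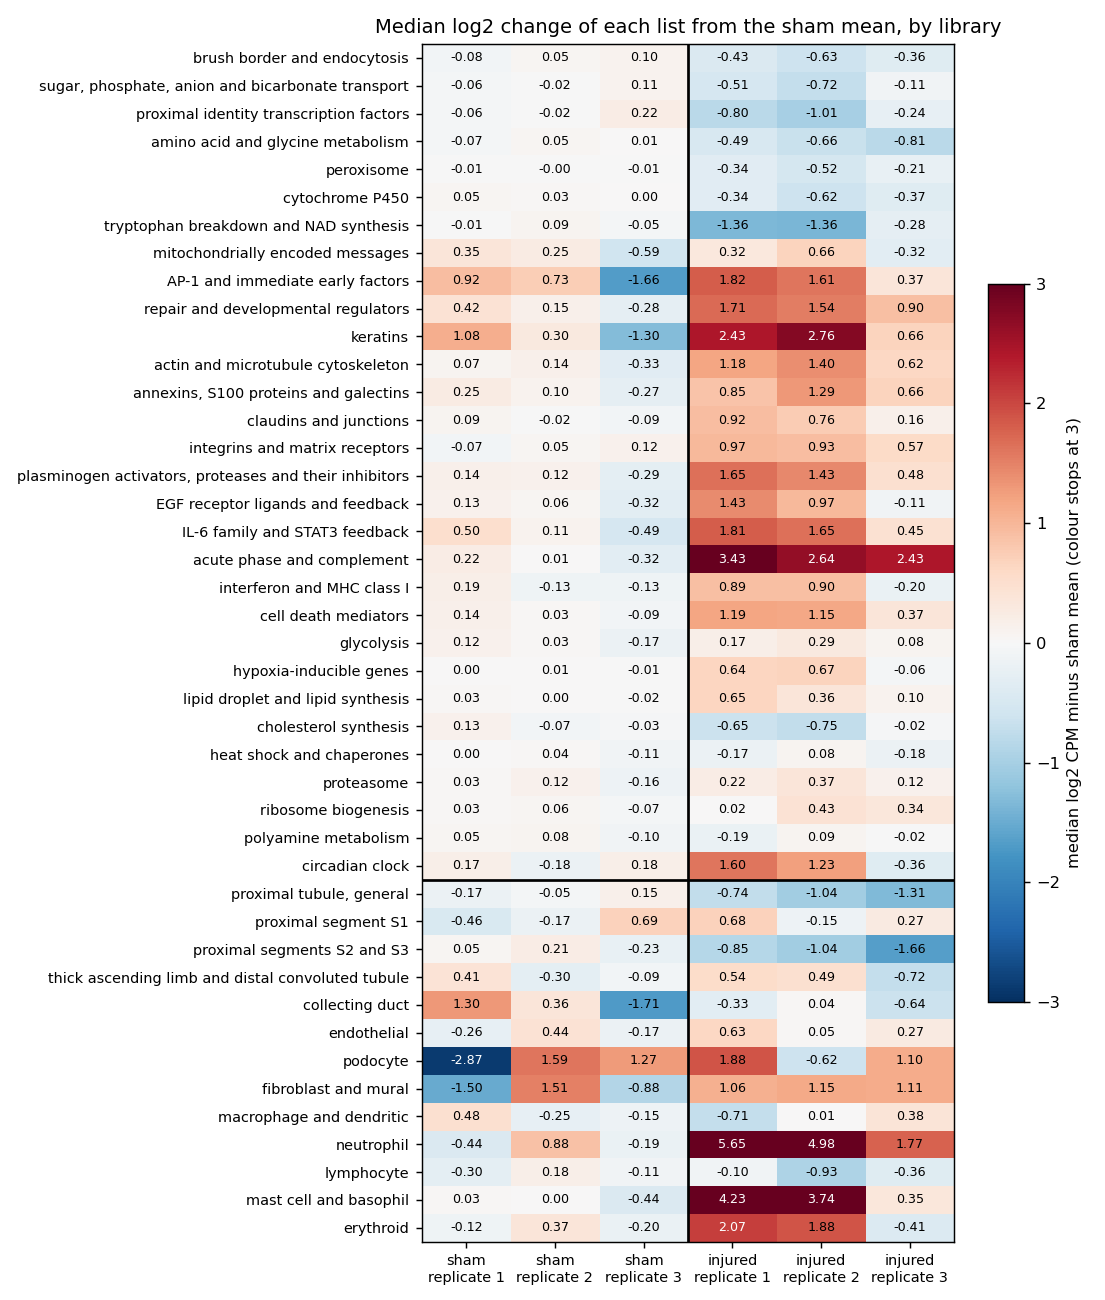
Median log2 deviation from the sham mean for each gene list (rows, with marker lists under the line) in each of the 6 samples (columns), with the value printed in each cell and colours from blue for lower to red for higher. Acute phase genes are high in all 3 injured samples, at 3.43, 2.64 and 2.43, whereas immediate early genes are already uneven in the sham samples, at 0.92, 0.73 and -1.66.

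Markers were used to check the label. General proximal tubule markers summed to 31967, 35216 and 38002 CPM in sham and 21852, 18426 and 15937 CPM in injured libraries, and of 13 tested members, 8 fell and 5 did not pass (0 and 4 to 6 without another sample). Among markers of segments S2 and S3 (10 tested members), 7 fell and 3 did not pass (0 and 2 to 6 without another sample). Among S1 markers (5 tested members), 0 were called by edgeR (0 at an unadjusted p under 0.05 and 0 by DESeq2). Without injured replicate 3, 2 S1 markers fell, and without sham replicate 3, 1 rose.

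Other cell types left reads as well, and their part in the results was not tested. Thick ascending limb and distal markers gave 12 tested members, of which 1 rose and 2 fell (5 and 3 without injured replicate 3, 0 to 2 and 0 to 1 without another sample, 0 and 2 with length offsets). They summed to 4136, 2672 and 2419 CPM in sham and 6412, 6281 and 2285 CPM in injured libraries, with injured replicate 3 below every other library. Their median deviation from the sham mean was 0.54, 0.49 and -0.72 in injured libraries. It was 2.43, 2.76 and 0.66 for keratins and 0.92, 0.76 and 0.16 for claudins and junctions. What distal cells added to Cdh1, the keratins and the claudins was not tested. Collecting duct markers summed to 1551, 735 and 192 CPM in sham and 456, 564 and 379 CPM in injured libraries. Endothelial markers summed to 181, 287 and 193 CPM in sham and 355, 236 and 259 CPM in injured libraries, and of 12 tested members, 0 were called by edgeR (3 at an unadjusted p under 0.05 and 3 by DESeq2), while 3 rose without injured replicate 3. Podocyte markers summed to 84.2, 394 and 365 CPM in sham and 455, 115 and 279 CPM in injured libraries, and fibroblast and mural markers to 24.6, 219.8 and 105 CPM in sham and 186, 215 and 99.3 CPM in injured libraries, with 0 members called by edgeR in either list (0 podocyte members at an unadjusted p under 0.05 and 0 by DESeq2, and 1 fibroblast member by each). Without injured replicate 3, 1 podocyte member fell.

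Macrophage and dendritic markers summed to 45.8, 28.2 and 31.1 CPM in sham and 278, 226 and 134 CPM in injured libraries, and of 13 tested members, 2 rose and 1 fell (2 and 0 without another sample, 2 and 0 with length offsets). Cd14, which kidney epithelium can also express, made up most of that sum: it read 10.6, 4.09 and 1.74 CPM in sham and 236, 179 and 104 CPM in injured libraries (4.98 ± 0.64, adjusted p = 0.0013). The other member that rose was Cd68, a lysosomal protein of macrophages, which read 0.864, 0.405 and 0.632 CPM in sham and 18.3, 19.0 and 5.41 CPM in injured libraries (4.49 ± 0.91, adjusted p = 0.0096). Csf1r, Adgre1 and the C1q genes did not pass. Neutrophil markers, beside which S100a8 and S100a9 must be read, summed to 1.22, 1.86 and 1.47 CPM in sham and 37.0, 21.1 and 4.57 CPM in injured libraries. Of the 11 members 5 were tested, of which 4 rose and 1 did not pass (0 to 1 and 0 without another sample, 2 and 0 with length offsets). With sham sums this low, a member could pass the count filter through injured libraries alone. The share that rose was therefore not set against the background. Among members under the filter, Elane had 0 reads in all 6 samples, Mpo 2 and Ly6g 9. Ngp had 192, 92 and 0 reads in the injured libraries, Camp 25, 5 and 0, and Mmp8 49, 30 and 1. Mast cell and basophil markers summed to 40.7, 16.9 and 8.22 CPM in sham and 60.3, 44.3 and 17.6 CPM in injured libraries, and of 3 tested members, 2 rose and 1 did not pass (1 to 2 and 0 without another sample): Tpsab1, and Hdc, which makes histamine and read 1.07, 1.40 and 0.758 CPM in sham and 20.5, 14.5 and 1.34 CPM in injured libraries (3.48 ± 0.75, adjusted p = 0.012). For Hdc, injured replicate 3 lay inside the sham range. In female tubules Hdc had a mean of 93.3 CPM in sham and 33.7 CPM in injured samples, and the source of its reads was not tested. Tpsab1, without a sham read, could pass the count filter only through injured libraries. Cma1, Mcpt4, Mcpt8, Fcer1a and Tpsb2 had 0 reads in all 6 samples. The other members under the filter had no sham read, and in the injured libraries Cpa3 had 0, 0 and 3 reads and Ms4a2 1, 0 and 4.

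The same contrast was set against that of the females, fitted together, to see which male responses differed. The difference passed the test for 157 genes, 0.855% of those tested, and 28 of these are in the lists or named here. In the female contrast itself, Casr was the only listed gene that passed. Mean levels of the injury markers Lcn2 and Havcr1 were 7.99 and 13.7 CPM in injured females, against 394 and 204 CPM in injured males. Whether the sexes differed in the degree of injury was not tested. Plin2 changed by 4.23 ± 0.55 in males and 0.22 ± 0.48 in females, Ctsl by 3.09 ± 0.41 and -0.17 ± 0.38, and Spp1 by 3.62 ± 0.24 and 0.55 ± 0.21. The sham level of Spp1 was 235 CPM in males and 1248 CPM in females, and the injured level 2893 and 1823 CPM. Lrp2 changed by -1.86 ± 0.22 in males and -0.24 ± 0.22 in females. The count depended strongly on single libraries: it was 25 without sham replicate 1, 28 and 55 without injured replicates 2 and 1, 36 and 223 without sham replicates 2 and 3, and 5892 without injured replicate 3.

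**Figure D5:**
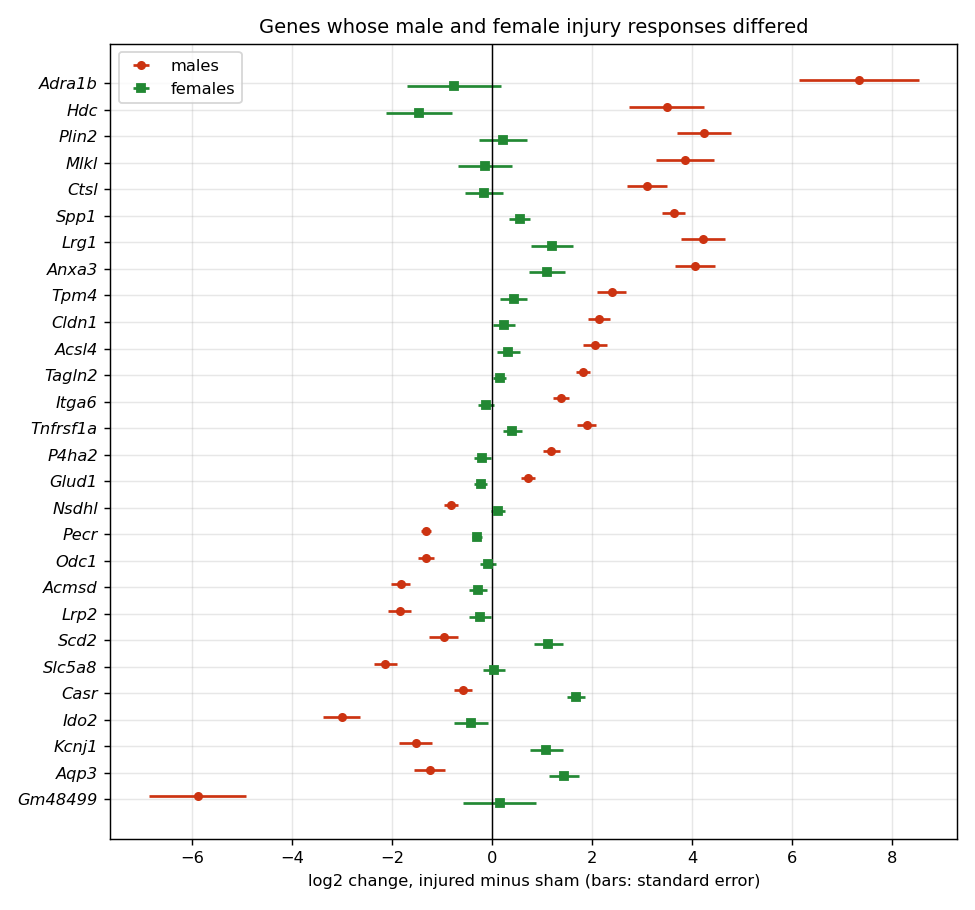
Log2 change after injury with its standard error in males (red circles) and females (green squares) for the 28 listed or named genes whose male and female changes differed. Adra1b, Hdc, Plin2 and Mlkl have the largest positive differences, and Gm48499 the largest negative one.

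The authors' deposited comparison describes the same male tubule samples, and the leading genes were mostly picked for large changes in them. It is therefore no independent check. Of the 47 leading genes named by rule, 47 passed the same threshold in the authors' deposited table, 47 of them in the same direction as here. Of all 284 called genes in the lists or named, 260 did so, 1 had no adjusted p-value there and 1, Cry1, had the other sign. Only sign and threshold were compared, not size. Some deposited log2 changes were far smaller than those given here, such as 0.20 for Il6 and 0.26 for Krt19, and others, such as 11.5 for Tpsab1, were not. Among those named above that did not pass in the authors' deposited table were Cry1 (log2 change -0.0025 and adjusted p = 0.99 there), Bhlhe41 (adjusted p = 0.49), P4ha2 (adjusted p = 0.17), Pdk3 (adjusted p = 0.093), Pfkm (adjusted p = 0.061), Krt19 (adjusted p = 0.057), Ppargc1a (adjusted p = 0.054) and Dusp6 (adjusted p = 0.051).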

How the data were processed

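Per the submitters' processing notes, reads were quantified with Salmon 0.13.1 on GRCm38; the deposited files give estimated counts and TPM per transcript. TPM was used only as a check of abundance as deposited. Per the file headers, the authors' deposited comparison table gives a log2 fold change, an error score and an adjusted p-value per gene, made with DESeq2 per the processing notes; it was used beside the refitted values.

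Estimated counts were summed per gene over the second identifier of each name, the 2 libraries of sham replicate 3 were added, and sums were rounded. Of 53392 genes, 53355 were found in GENCODE M21. The 12 tubule samples of 4 groups were fitted (R 4.3.3, edgeR 4.0.16; TMM, filterByExpr with minimum count 10 and minimum total 15, quasi-likelihood test), and the male contrast was read from that fit. The common biological coefficient of variation was 0.392 on 8 residual degrees of freedom. Standard errors are the log2 change over the square root of F. Depth was 40911725 to 47176088 reads per male sample, and floors of 3 counts cover counting error only. On simulated data of 18369 genes for this comparison, with changed genes drawn among the well expressed and a spread smaller than measured, 75 of 100 genes changed 2-fold and 100 of 100 changed 4-fold were called, beside 10 unchanged ones.

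Genes were named by rule: the 12 largest log2 rises and falls (at least 5 CPM, protein-coding, no overlap of libraries), the 8 largest rises and falls in CPM, the 3 largest without a protein-coding transcript (at least 2 CPM), up to 4 members per list by adjusted p, and Havcr1, Lcn2, Lrp2 and Slc34a1. Some further list members are named as well, after their values were seen, also where the text does not say so, and the results of some genes are not reported here. The members, the 30 gene lists and the 13 marker lists were chosen with earlier results of these data known. Same-numbered replicates did not deviate together, so no pairing was used. Alternatives were another normalization, DESeq2 1.42.0, no filter, length offsets, the male libraries alone, a replicate block, each technical library alone, the removal of CT010467.1, and each sample left out.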

Additional observations from a re-analysis of the deposited data

Results flagged for a closer look

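The difference between the male and the female injury response passed edgeR's test for 28 listed or named genes, with adjusted p between 0.0033 and 0.048 over 18369 genes. Values are male minus female log2 changes. The male change was the higher one for Tagln2 (1.67), Spp1 (3.08), Itga6 (1.49), Cldn1 (1.90), Ctsl (3.26), Anxa3 (2.97), Plin2 (4.02), Tnfrsf1a (1.48), P4ha2 (1.38), Adra1b (8.10), Acsl4 (1.73), Lrg1 (3.02), Mlkl (4.00), Glud1 (0.94), Tpm4 (1.96), Hdc (4.95). It was the lower one for Casr (-2.26), Pecr (-1.02), Slc5a8 (-2.17), Aqp3 (-2.68), Acmsd (-1.54), Kcnj1 (-2.61), Odc1 (-1.24), Ido2 (-2.59), Lrp2 (-1.61), Scd2 (-2.09), Gm48499 (-6.04), Nsdhl (-0.94). Casr, Aqp3, Kcnj1 and Scd2 fell in males, while their female log2 changes were 1.67, 1.43, 1.08 and 1.12, of which that of Casr passed the test (adjusted p = 0.027). Casr and Kcnj1 are markers of the thick ascending limb and distal list, and Aqp3 of the collecting duct list. The female median log2 changes of these lists were 1.26 and 2.03. The share of those segments in each sample was not tested. With a replicate block 54 genes passed over all genes tested, against 157 without it. Single outlying samples were not tested for in these groups of 3.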

How the results depend on the processing

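Counts are given as called, higher and lower. The 3488 called genes (1939, 1549) became 5360 (3056 higher, 2304 lower) with DESeq2, 2122 (1200, 922) with length offsets, and 154 (99, 55) with the 6 male libraries alone. With those 6 less injured replicate 3, chosen after seeing the data, they became 7145 (3601, 3544). Another normalization gave 3567, no filter 3327, removal of CT010467.1 3473, and the 2 technical libraries of sham replicate 3 alone 2863 and 3619. Leaving out each male sample gave 953 to 8203 called genes, 528 to 3853 higher and 425 to 4350 lower; the most genes were called without injured replicate 3 and the fewest without injured replicate 2. A replicate block gave 3275 genes, 1666 higher and 1609 lower; same-numbered samples correlated in their deviations at -0.001, 0.026 and 0.143. For the difference between the sexes, 157 genes became 1535 with DESeq2, 153 with another normalization and 54 with the replicate block, and 25 to 5892 with each male sample left out. Of the 284 called genes in the lists or named, 281 to 284 had a value under each of these alternatives, and 0 of these changed sign, while 245 of them lost their call in the 6 libraries alone and 67 with length offsets. The cause of these shifts was not tested. Fewer than 3 counts over a group could not be told from none.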

Other observations

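Among nuclear genes with a protein-coding transcript, Kap, the androgen-regulated protein of kidney tubules, was the most abundant message by mean TPM in both groups. Mitochondrially encoded messages were left out of that ranking. Its TPM was 26012, 28705 and 22415 in the sham libraries and 24732, 23307 and 7757 in the injured ones, lowest in injured replicate 3, and it did not pass edgeR's test (log2 change -0.33 ± 0.64, adjusted p = 0.76).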
